A study of Homo sapiens with 2 samples.

Results

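The genes described here are 10 components and targets of bone morphogenetic protein (BMP) signalling, chosen by their symbols among the 60527 rows of the deposited expression table: the ligands BMP2 and BMP4, the antagonist NOG, the pseudoreceptor BAMBI, the inhibitory SMADs SMAD6 and SMAD7, and the inhibitor of DNA binding genes ID1, ID2, ID3 and ID4. All 10 were present once and reached a mean of at least 1 FPKM (fragments per kilobase of exon per 1000000 fragments). The list was drawn up with values of these libraries known, NOG and ID4 among them, so the differences below are descriptions of these libraries. The RNA libraries analysed here were from 1 culture given JNJ-7706621, an inhibitor of cyclin-dependent and Aurora kinases, at 1.75 µM for 48 h, and from 1 culture given the solvent DMSO for 48 h. Both were grown in MEM with serum and carry the label of the human melanoma line SK-MEL-2. With 1 library per group analysed here there was no replicate check and no test. Intervals in parentheses are 95% counting intervals and say nothing about the spread between cultures.

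BMPs are secreted ligands that bind paired type I and type II receptor kinases, which phosphorylate SMAD1, SMAD5 and SMAD9, and these enter the nucleus with SMAD4. The ID genes are classic direct targets. Their products carry a helix-loop-helix domain without a basic DNA-binding region and hold E proteins such as TCF3 and TCF12 off DNA. The pathway also induces its own brakes: noggin, encoded by NOG, binds BMPs outside the cell, BAMBI is a receptor-like membrane protein without a kinase domain, SMAD6 acts mainly on BMP receptors, and SMAD7 acts on both BMP and TGF-beta receptors.

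In the labelled melanoma cultures, 2 of 8 melanocyte markers (MITF and PMEL) reached a mean of 1 FPKM, and the defining markers SOX10, TYR and DCT had at most 1 read in either library. All 5 epithelial markers were well above it, with summed levels of 1979 FPKM in the JNJ-7706621 library and 1962 FPKM in the DMSO library, against 6.25 and 4.92 FPKM for the melanocyte markers. None of the 6 fibroblast, 5 leukocyte and 3 endothelial markers reached a mean of 1 FPKM. Library totals, inferred from the FPKM values, were 22817719 reads for JNJ-7706621 and 23377161 reads for DMSO. In bulk RNA, fewer cells that express a gene and less of its RNA per cell cannot be told apart.

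Upstream sequences of the 4 ID genes are shown because their mRNAs all stood lower in the JNJ-7706621 library, and that of SMAD6 because its mRNA stood slightly higher there. They are the 250 bases before the RefSeq start on GRCh38.p14, written 5′ to 3′ on the gene's strand. Capitals mark GTCT or its reverse complement AGAC, the short motif that SMAD proteins can bind.
ID1 (chr20:31605039-31605288, + strand): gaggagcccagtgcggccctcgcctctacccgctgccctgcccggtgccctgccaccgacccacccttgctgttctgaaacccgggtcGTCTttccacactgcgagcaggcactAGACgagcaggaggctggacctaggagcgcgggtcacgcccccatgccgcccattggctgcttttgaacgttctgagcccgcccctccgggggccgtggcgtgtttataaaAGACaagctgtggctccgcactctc
ID2 (chr2:8681806-8682055, + strand): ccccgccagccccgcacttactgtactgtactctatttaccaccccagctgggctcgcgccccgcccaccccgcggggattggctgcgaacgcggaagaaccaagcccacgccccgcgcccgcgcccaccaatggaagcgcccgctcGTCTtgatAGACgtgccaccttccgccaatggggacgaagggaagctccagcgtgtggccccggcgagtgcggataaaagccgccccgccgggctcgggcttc
ID3 (chr1:23559502-23559751, - strand): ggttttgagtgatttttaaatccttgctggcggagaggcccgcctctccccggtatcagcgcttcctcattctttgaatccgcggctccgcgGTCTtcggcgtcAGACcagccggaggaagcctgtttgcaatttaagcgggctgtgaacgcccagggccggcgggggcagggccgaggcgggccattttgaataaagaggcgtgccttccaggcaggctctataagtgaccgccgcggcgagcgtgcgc
ID4 (chr6:19837120-19837369, + strand): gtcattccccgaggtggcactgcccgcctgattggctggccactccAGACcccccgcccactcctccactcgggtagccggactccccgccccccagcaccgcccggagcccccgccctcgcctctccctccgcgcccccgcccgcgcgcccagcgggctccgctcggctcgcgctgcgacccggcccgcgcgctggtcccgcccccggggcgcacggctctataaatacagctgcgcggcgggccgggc
SMAD6 (chr15:66701986-66702235, + strand): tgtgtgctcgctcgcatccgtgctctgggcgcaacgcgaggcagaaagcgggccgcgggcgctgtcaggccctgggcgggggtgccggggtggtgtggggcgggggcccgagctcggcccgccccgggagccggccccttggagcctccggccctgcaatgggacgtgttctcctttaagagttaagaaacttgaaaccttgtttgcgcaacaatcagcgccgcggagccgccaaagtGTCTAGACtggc

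The RefSeq promoter table held 12 start sites for 8 of the genes (3 each for SMAD7 and BMP4, and not BMP2 or NOG). Windows from 250 bases before to 50 after the start were searched on both strands. The GTCT motif was present in all 12 windows, against 84.0% of 35116 promoters, so its presence does not set these genes apart. ID1 had 3 occurrences, ID2, ID3 and SMAD6 had 2 each, and ID4 had 1. In SMAD6 the copies abut, one per strand, and form a palindrome just before the start. The GC-rich motif GGCGCC, which BMP-activated SMADs can bind, was in 2 of the 12 windows, those of BAMBI and of 1 start of BMP4, against 19.2% of all promoters. The E-box CACGTG was in 1 window, of BMP4, against 7.26% of all promoters. A match is a stretch of letters and was not measured as a binding site here.

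The antagonist gene NOG differed most. It stood at 1.66 FPKM in the JNJ-7706621 library, against 12.2 FPKM in the DMSO library, on 72 and 541 reads. The FPKM ratio of JNJ-7706621 to DMSO was 0.136 (0.105 to 0.175). On the scale of log2(FPKM + 1), which understates the difference of low values, NOG differed by -2.31, and 3 of 13241 genes with a mean of at least 1 FPKM were as low or lower, NOG included. NOG is a single-exon gene at chr17:56593699-56595590 on the plus strand of GRCh38, with no annotated exon of another gene over it.

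The BMP ligand genes differed in opposite directions and by less. BMP2 stood at 21.3 FPKM in the JNJ-7706621 library, against 34.6 FPKM in the DMSO library, a ratio of 0.617 (0.581 to 0.656) on 1726 and 2864 reads. Its log2 difference of -0.67 placed it among the lowest 4.79% of the 13241 genes. BMP4 stood at 6.88 FPKM in the JNJ-7706621 library, against 5.53 FPKM in the DMSO library, a ratio of 1.24 (1.09 to 1.42) on 486 and 400 reads. Its log2 difference of 0.27 was reached or passed by 23.9% of all genes. BMP2 (chr20:6767664-6780280, plus strand) was the more abundant ligand mRNA in both cultures, at 3.10 times BMP4 (chr14:53949736-53958761, minus strand) with JNJ-7706621 and 6.25 times with DMSO.

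Summed over BMP2 and BMP4, ligand mRNA stood at 28.2 FPKM in the JNJ-7706621 library, against 40.1 FPKM in the DMSO library, a ratio of 0.704. Relative to NOG, the ligand mRNAs stood higher in the JNJ-7706621 library. That follows from the low NOG value there, which was known when the genes were chosen, and is no separate result. BMP2 stood at 12.8 times NOG in the JNJ-7706621 library and at 2.84 times NOG in the DMSO library, both as FPKM. The order of BMP4 and NOG differed between the libraries, with BMP4 at 4.14 times NOG in the JNJ-7706621 library and at 0.454 times NOG in the DMSO library. These are ratios of mRNA levels, and no protein was measured.

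The pseudoreceptor gene BAMBI (chr10:28677342-28682939, plus strand) was close to level, at 23.9 FPKM in the JNJ-7706621 library, against 26.1 FPKM in the DMSO library, a ratio of 0.915 (0.845 to 0.991) on 1166 and 1306 reads. The inhibitory SMADs differed little and in opposite directions. SMAD6 (chr15:66702228-66782848, plus strand) stood at 9.26 FPKM in the JNJ-7706621 library, against 7.66 FPKM in the DMSO library, a ratio of 1.21 (1.13 to 1.29) on 1807 and 1533 reads. SMAD7 (chr18:48919853-48952052, minus strand) stood at 3.82 FPKM in the JNJ-7706621 library, against 4.50 FPKM in the DMSO library, a ratio of 0.850 (0.747 to 0.967) on 439 and 529 reads. SMAD6 was the more abundant inhibitory SMAD mRNA in both, at 2.42 times SMAD7 with JNJ-7706621 and 1.70 times with DMSO. The log2 differences of SMAD6 (0.24), SMAD7 (-0.19) and BAMBI (-0.12) lay in the middle of the distribution, with 26.0% of all genes as high as SMAD6 and 30.2% and 37.0% as low as SMAD7 and BAMBI. The brakes on the pathway thus spanned ratios from 0.136 for NOG to 1.21 for SMAD6.

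**Figure D1:**
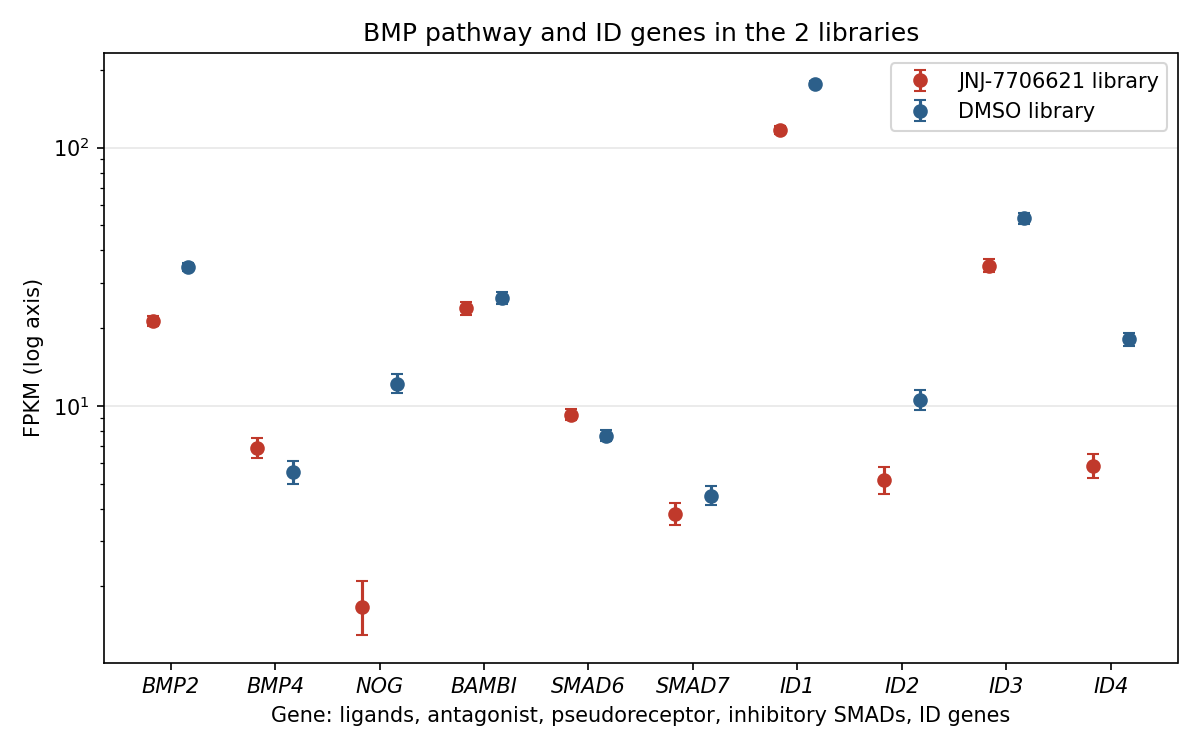
Level of each gene as FPKM on a log axis in the JNJ-7706621 library (red, left) and the DMSO library (blue, right), with bars for 95% counting intervals. NOG and ID4 show the widest gaps, at 1.66 against 12.2 FPKM and 5.87 against 18.1 FPKM, and BMP4 and SMAD6 are the genes where the JNJ-7706621 point lies above the DMSO point.

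All 4 ID genes stood lower in the JNJ-7706621 library, to unequal degrees. ID4 stood at 5.87 FPKM in the JNJ-7706621 library, against 18.1 FPKM in the DMSO library, a ratio of 0.325 (0.287 to 0.367) on 346 and 1092 reads. Its log2 difference of -1.47 was matched or passed downward by 55 of the 13241 genes, ID4 included. ID2 stood at 5.15 FPKM in the JNJ-7706621 library, against 10.6 FPKM in the DMSO library, a ratio of 0.488 (0.419 to 0.567) on 260 and 546 reads. Its log2 difference of -0.91 placed it among the lowest 1.87% of genes. ID4 lies at chr6:19837386-19840684 and ID2 at chr2:8678845-8684453, both on the plus strand.

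The abundant members of the family had nearly equal ratios. ID1, the most abundant of the 10 genes in both cultures, stood at 117 FPKM in the JNJ-7706621 library, against 177 FPKM in the DMSO library, a ratio of 0.663 (0.634 to 0.693) on 3295 and 5091 reads. ID3 stood at 34.9 FPKM in the JNJ-7706621 library, against 53.2 FPKM in the DMSO library, a ratio of 0.655 (0.609 to 0.705) on 1190 and 1860 reads. Their log2 differences of -0.59 (ID1) and -0.60 (ID3) were within the lowest 6.69% of genes. ID1 lies at chr20:31605283-31606515 on the plus strand, the chromosome of BMP2, and ID3 at chr1:23557918-23559794 on the minus strand. The intervals of ID1 and ID3 overlap each other, and they lie above those of ID2 and ID4, which do not overlap either.

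Summed over the family, ID mRNA stood at 163 FPKM in the JNJ-7706621 library, against 258 FPKM in the DMSO library, a ratio of 0.631. ID1 made up 71.8% of the sum in the JNJ-7706621 library and 68.3% in the DMSO library, and ID3 made up 21.4% and 20.6%. ID4 made up 3.60% in the JNJ-7706621 library and 7.00% in the DMSO library, and ID2 made up 3.16% and 4.08%. The summed level was therefore set mainly by ID1 and ID3, while the larger relative differences were in the scarce members.

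**Figure D2:**
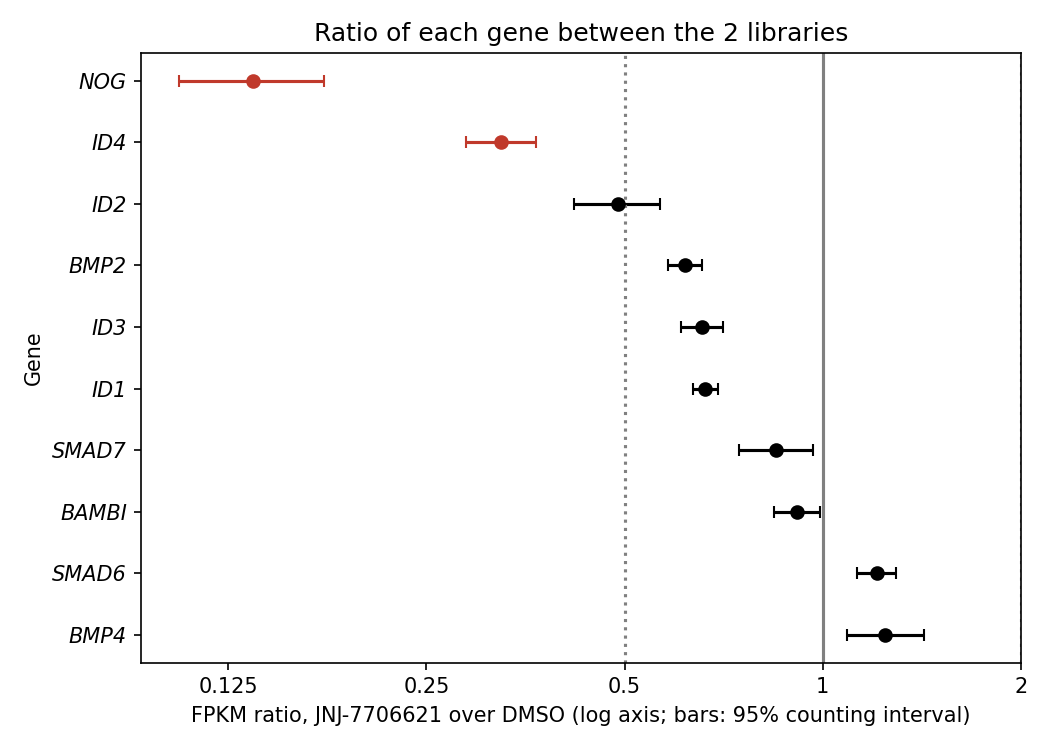
FPKM ratio of JNJ-7706621 over DMSO for each gene on a log axis, sorted, with 95% counting intervals and dotted lines at 0.5 and 2. NOG at 0.136 and ID4 at 0.325 (red) lie wholly below 0.5, ID2 at 0.488 straddles it, and the other genes lie between 0.617 and 1.24.

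A gene was called 2-fold higher or lower where its log2(FPKM + 1) difference was at least 1 or at most -1. By this rule 2 of the 10 genes, NOG and ID4, were called lower, against 1.36% of all 13241 genes, and 0 were called higher, against 2.39%. ID2, at -0.91, was just short and passed with a pseudocount of 0.1 (-1.02). The median log2 difference of the 10 genes was -0.59, against -0.0032 for all genes, and 8 of them lay below 0, against 50.4% of all genes. Counting intervals lay wholly below a ratio of 1 for 8 of the 10 genes and wholly above it for 2, but at this depth 33.2% and 32.8% of 13108 genes with recovered reads did the same, so an interval clear of 1 is common in these libraries. Because the genes were chosen with these values known, nothing is read from the counts.

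**Figure D3:**
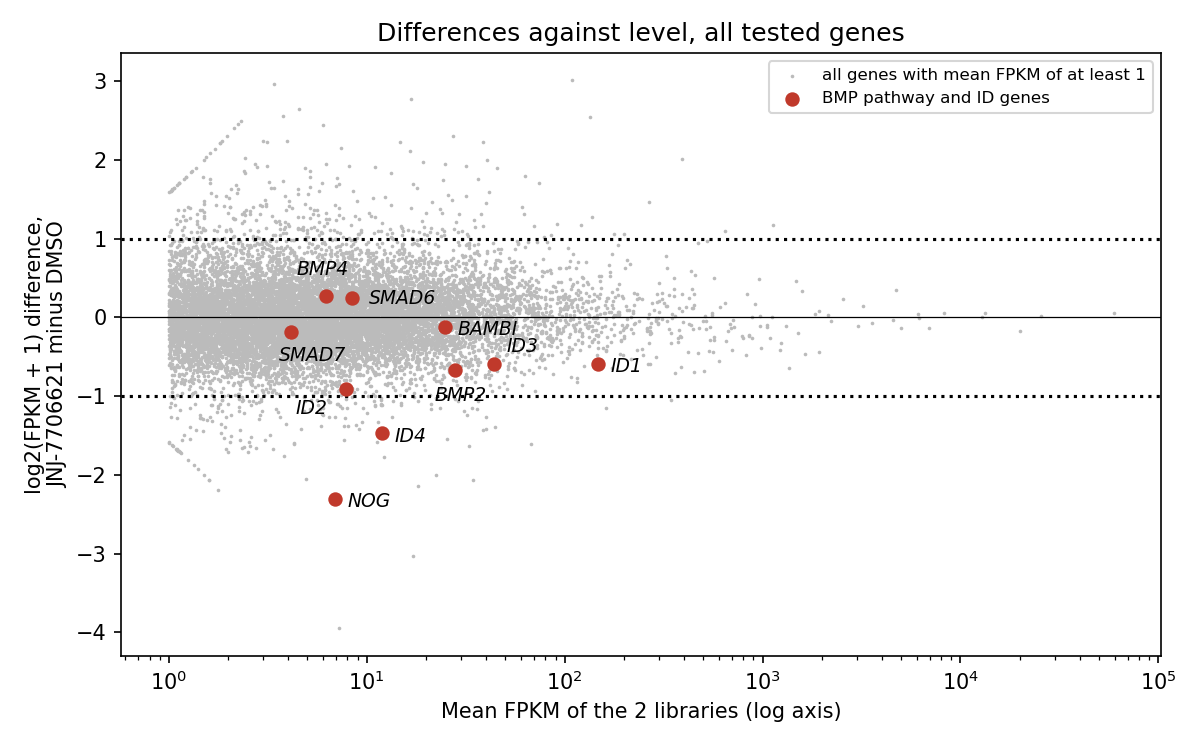
log2(FPKM + 1) difference of JNJ-7706621 minus DMSO against the mean FPKM of the libraries on a log axis, for all 13241 genes (grey) and the 10 described here (red, named). NOG (-2.31) and ID4 (-1.47) lie below the dotted line at -1, ID2 (-0.91) just above it, and BMP4 and SMAD6 are within the bulk of genes above 0.

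Receptors, SMADs and other targets of the wider pathway were read from 7 lists of 159 further genes, of which 81 reached a mean of 1 FPKM. Of these 81, 3 were called higher (SMAD3, CDKN1A and COL4A1), against 2.39% of all genes, and 0 lower, against 1.36%, with a median log2 difference of -0.08. In a list of this size both counts are near the shares of all genes, and nothing is read from them.

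Among 10 measured receptors and co-receptors, none was called, against 2.39% of all genes called higher and 1.36% lower. Below 0 lay 7 and above it 3, against 50.4% of all genes below 0, and the median log2 difference was -0.24. The median was 0.14 among the receptors with a mean of at least 5 FPKM, so its sign depends on the filter. The 5 with the largest differences were all receptors of BMPs and all stood lower: BMPR2, the type II receptor, with a ratio of 0.645 (0.559 to 0.743), the type I receptors BMPR1B, BMPR1A and ACVR1 with 0.703, 0.730 and 0.805, and the co-receptor RGMB with 0.637. The 3 above 0, named after their values were seen, were ACVR1B with 1.20 (1.07 to 1.35), TGFBR2, the type II receptor of TGF-beta, with 1.12 (1.08 to 1.17), and NEO1 with 1.10 (1.04 to 1.15). TGFBR1 and TGFBR3, also of TGF-beta, lay below 0 and were named after their values were seen. Their ratios were 0.822 (0.738 to 0.915) and 0.914 (0.783 to 1.06), so the lower receptors were not those of BMPs alone. The value of RGMB is uncertain, since 45.6% of its exon bases are shared with exons of other genes.

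Among the signalling SMADs measured, SMAD3 stood higher in the JNJ-7706621 library and the others lower. SMAD3, which carries TGF-beta and activin signals, was the 1 called gene among 26 measured SMADs and regulators. Over all genes 2.39% were called higher and 1.36% lower, so nothing is read from that count. SMAD3 stood at 43.7 FPKM in the JNJ-7706621 library, against 20.5 FPKM in the DMSO library, a ratio of 2.13 (2.06 to 2.21). SMAD2, which carries the same signals as SMAD3, had a ratio of 0.828 (0.793 to 0.864), and SMAD1 and SMAD5, which carry BMP signals, had ratios of 0.652 (0.556 to 0.762) and 0.789 (0.724 to 0.860). SMAD4, the partner of both branches, had a ratio of 0.712 (0.648 to 0.782). These 4 were named after their values were seen. CTDSP1, a phosphatase of SMADs, had a ratio of 0.465 (0.424 to 0.509), missed the rule of size at -0.998 and passed it with pseudocounts of 0.1 and 0.5. TOB1, TGIF2 and CTDSP2 followed by size, with log2 differences of -0.72, 0.68 and -0.52.

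The direction of the ID genes was not shared by every listed BMP target. Of 10 measured targets beyond the ID family, 6 lay above 0 and 4 below, with a median log2 difference of 0.20 and 0 called. Over all genes 50.4% lay below 0, 2.39% were called higher and 1.36% lower, so nothing is read from these counts. The median was 0.52 at a mean of at least 5 FPKM and 0.011 with no filter. The transcription factor genes JUNB, GATA2 and MSX2 had log2 differences of 0.93, 0.54 and 0.52, while ATOH8 and TFAP2A had -0.47 and -0.43.

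Of 14 measured TGF-beta and activin targets, 2 were called higher, against 2.39% of all genes, and 0 lower, against 1.36%. Above 0 lay 11 and below it 3, against 50.4% of all genes below 0, with a median log2 difference of 0.28. The median was 0.81 at a mean of at least 5 FPKM and 0.11 with no filter. COL4A1, a basement membrane collagen chain, and CDKN1A, which p53 also induces, had ratios of 2.61 (2.42 to 2.81) and 2.69 (2.56 to 2.82), and JUNB, PMEPA1 and TGFBI had log2 differences of 0.93, 0.81 and 0.80. The 3 below 0 were added here after their values were seen. CCN2 had a ratio of 0.512 (0.389 to 0.670), SKIL 0.749 (0.668 to 0.841) and BHLHE40 0.817 (0.782 to 0.854).

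**Figure D4:**
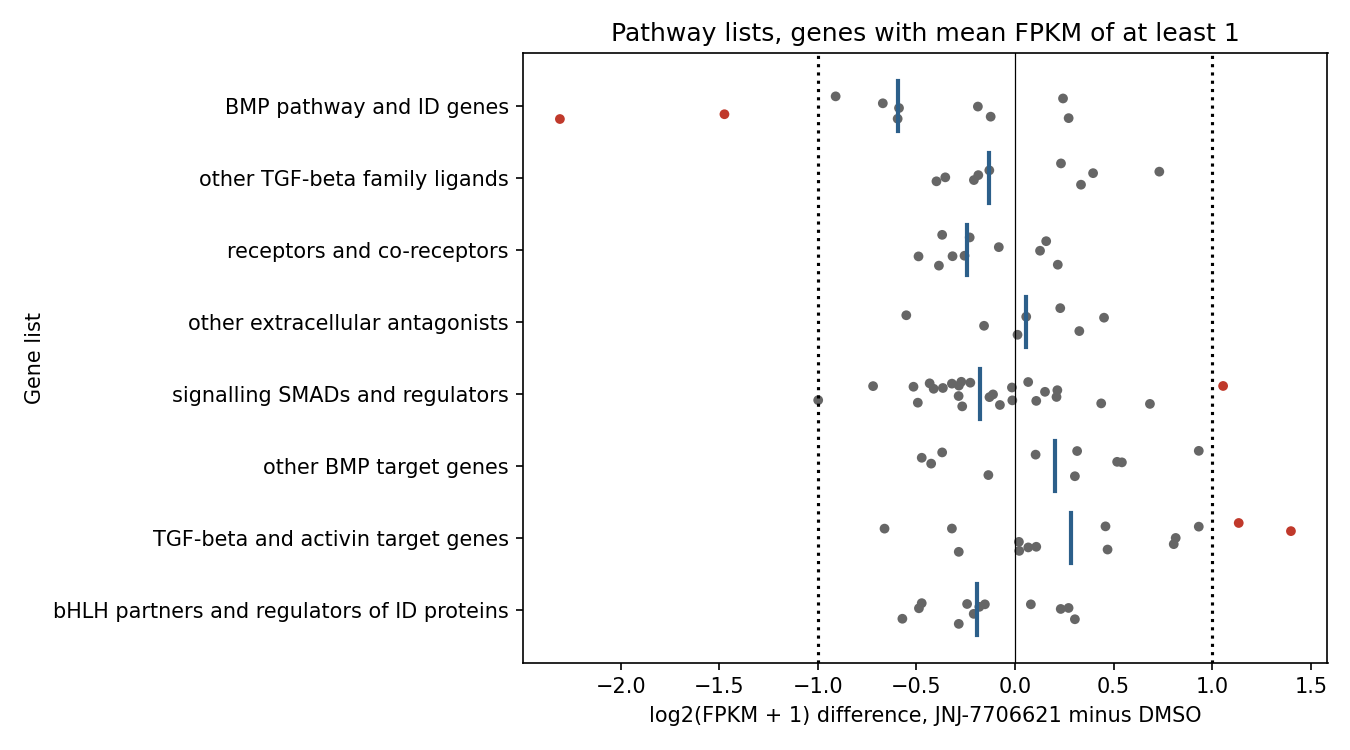
log2(FPKM + 1) difference of JNJ-7706621 minus DMSO for each gene with a mean of at least 1 FPKM, by list, with blue bars for list medians, dotted lines at -1 and 1, and red points for called genes. The 10 genes described here have the lowest median (-0.59) and the TGF-beta and activin targets the highest (0.28). All lists were chosen with earlier results of these data known, so nothing is read from this order.

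The 9 other ligands measured held no called gene, against 2.39% of all genes called higher and 1.36% lower. Their median log2 difference was -0.13, against 0.23 at a mean of at least 5 FPKM. GDF15, AMH, GDF11, BMP6 and GDF9 led by size with log2 differences of 0.73, -0.40, 0.40, -0.35 and 0.33. The 7 other extracellular antagonists and processing enzymes measured held none either, with FSTL3, FSTL1, BMP1, NBL1 and CRIM1 at -0.55, 0.45, 0.33, 0.23 and -0.16.

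Of 12 measured genes whose products pair with or regulate ID proteins, 0 were called, against 2.39% of all genes called higher and 1.36% lower. The median log2 difference of the 12 was -0.20. TCF12, an E protein that ID proteins bind, had a ratio of 0.646 (0.582 to 0.717), close to those of ID1 and ID3. TCF3, the other E protein named above, had a ratio nearer 1, at 0.850 (0.782 to 0.922), and was added after its value was seen. TWIST1, ATOH8, HES1 and BHLHE40 had log2 differences of -0.57, -0.47, 0.30 and -0.29.

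The nearest measured genes on either side were also read, a step added after the values were seen. Of the 20 nearest protein-coding genes with a mean of at least 1 FPKM on either side of the 10 genes, 7 lay within 100 kb. Of the 20, 1 was called higher, against 2.39% of all genes, and 0 lower, against 1.36%, with a median log2 difference of -0.02. The called gene was SMAD3, the next measured gene beyond SMAD6 at a distance of 281 kb. KIDINS220, 36.6 kb from ID2, had a ratio of 0.515 (0.449 to 0.589), close to that of ID2 (0.488), and a log2 difference of -0.54. By contrast, E2F2, 26.7 kb from ID3 (0.655), had a ratio of 2.25 (1.93 to 2.63). BCL2L1, 57.9 kb from ID1 (0.663), had a ratio of 1.39 (1.33 to 1.44). The others within 100 kb were HM13 by ID1, CTIF and DYM by SMAD7 and WAC by BAMBI. Their ratios were 0.915, 0.858, 0.878 and 0.706. The nearest measured genes to NOG were PCTP, 751 kb away, and C17orf67, 196 kb away, with log2 differences of -0.12 and 0.31. Those nearest to ID4 were RNF144B, 1369 kb away, and MBOAT1, 262 kb away, with 0.42 and -0.29. At these distances they do not show whether the NOG or ID4 locus differed as a whole. Exon overlap with another gene was found only for ID2 among the 10, at 1.72% of its exon length, with ID2-AS1. Besides RGMB, pathway genes named above with larger overlap include NBL1 (17.8%), TFAP2A (16.7%), JUNB (14.2%) and TOB1 (11.15%), so their values are less certain.

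Because the series title concerns AUF1, a protein that binds AU-rich RNA, the longest annotated 3' UTR of each gene was searched for the pentamer AUUUA and the heptamer UAUUUAU. The pentamer was in all 10, against 73.3% of 10146 measured genes, and the heptamer in 5, against 34.8%. BMP2 had 13 pentamers and 4 heptamers in 1191 bases. NOG and ID2 had 2 heptamers each, SMAD6 and SMAD7 had 1 each, and ID1, ID3, ID4, BMP4 and BAMBI had 0. Short stretches around the first heptamer (capitals, with T for U) show its setting in NOG, ID2, SMAD6 and SMAD7. The stretch of BMP2 is not shown.
NOG: tgttaacctgcTATTTATattccagtgcc
ID2: gtgatattcgtTATTTATgaaaaagactt
SMAD6: tacaatgtaatTATTTATgtatggtgcaa
SMAD7: ataagcatcatTATTTATgtattgtgcaa
The genes with a heptamer had FPKM ratios from 0.136 (NOG) to 1.21 (SMAD6), and those without one from 0.325 (ID4) to 1.24 (BMP4). SMAD6 and BMP4 were the only genes above a ratio of 1. The genes were chosen with values known, so nothing is read from these ranges, and a link between motif and difference was not tested. AUF1 binding and mRNA decay were not measured.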

How the data were processed

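The authors deposited FPKM values per gene. Genome build hg38 and edgeR, with no role, come from the submitters' processing notes. Aligner, counter, annotation and strand setting were not given in the sources used here. Only the 2 columns whose names match the sample labels were used, and 2 others, named like them but with the number 2 at the end, were not, because no sample label used here matches them; they may be further libraries of the same groups. The 10 genes and all lists were chosen with earlier results of these data known.

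Each library total was inferred from FPKM, as the most frequent value obtained by taking a gene to hold 1 read at its annotated exon length. It came from 2222 genes for JNJ-7706621 and 2325 for DMSO. Reads were then recovered from FPKM: library total and exon length (GENCODE release 29, or the nearest length within 0.25 to 4 times it) had to make both values whole within 0.0001 reads. This held for 27805 of 28014 annotated genes above 0 (99.2%), 17325 of them at the annotated length. For ID3, ID4 and BMP4 a shorter length would also give whole reads, fewer by the same factor in both libraries; the interval of BMP4 would then be 1.03 to 1.51. Ratios do not depend on this. Intervals are exact Clopper-Pearson intervals, conditional on the reads of both libraries, and cover counting error alone, since without molecular identifiers PCR copies of 1 molecule count separately.

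The log2 difference used a pseudocount of 1, and genes with a mean of at least 1 FPKM entered. Genes named are the 10, up to 5 per list by size of difference, all called genes and the markers; others are said to be named after their values were seen. A protein comparison was not made, and 1 listed gene is not reported here. Coordinates are 1-based on GRCh38; upstream sequences are from RefSeq (GRCh38.p14). The calculations were tested on simulated reads. Python 3.11.15, NumPy 2.4.6, pandas 2.3.3, SciPy 1.17.1 and Matplotlib 3.10.9 were used.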

Additional observations from a re-analysis of the deposited data

How the results depend on the processing

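Under 6 alternatives (pseudocounts of 0.1 and 0.5, no filter, a mean of at least 5 FPKM, rescaling to a sum of 1000000, and a median log2 ratio set to 0), 58 of 59 recomputed differences of the 10 genes kept direction and side of the rule of size; ID2 passed it at a pseudocount of 0.1. SMAD7 has a mean below 5 FPKM and no value there. Of the other genes named by size of difference, CTDSP1 passed with both lower pseudocounts and after rescaling, where the count of pathway genes called lower was 1 against 0, and JUNB passed at 0.1. Genes named only after their values were seen were not recomputed. Among all genes, 316 higher and 180 lower became 608 and 409 at a pseudocount of 0.1, 145 and 75 at a mean of 5 FPKM and 714 and 478 after rescaling, and lower genes numbered 274 at a pseudocount of 0.5. Counting intervals clear of 1, a rule chosen after seeing the data, gave 4295 higher and 4349 lower, and 2 and 8 of the 10 genes. The receptor median was 0.14 and that of the other ligands 0.23 at a mean of 5 FPKM, the opposite sign to the values reported, because fewer genes entered, and that of the TGF-beta and activin targets was 0.81 and of the other BMP targets 0.52 there. With no filter these medians were -0.034 for receptors, 0.11 for TGF-beta and activin targets and 0.011 for the other BMP targets. No paired analysis was possible because each group has 1 library analysed here. With 1 library per group, the spread between cultures is unknown.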
